A study of Homo sapiens with 6 samples.

Results

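Hyaluronan is a glycosaminoglycan of the extracellular matrix, and the genes described here make it, break it down and bind it. The group was chosen by name and has 9 members: the synthases HAS2 and HAS3, the precursor enzyme UGDH, the hyaluronidases HYAL1, HYAL2 and HYAL3, the secreted depolymerising factor CEMIP, the receptor CD44 and the antisense RNA HMMR-AS1. All 9 were found by symbol among the 60589 rows of the expression table. They were listed with the difference between the knockdown and control libraries already known, so their own differences are given below as a description and not as a test. RNA was sequenced from SNU449, an established line from a human hepatocellular carcinoma, collected at day 3. One group received a control siRNA (siControl, n = 3) and the other an siRNA directed at MAD2L1, a protein of the spindle assembly checkpoint (siMAD2L1, n = 3). The labels name no other agent, and both groups are the same line. The treatment field of siMAD2L1 replicates 2 and 3 reads MAD2L2 and MAD2L3, whereas the titles of all 3 libraries name MAD2L1. The labels do not tell whether the replicates were separate cultures, so the p-values measure only the spread between these libraries, which may be technical.

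Hyaluronan is a long unbranched chain of alternating glucuronic acid and N-acetylglucosamine. It is spun out through the plasma membrane by the HAS enzymes, which draw on UDP-glucuronate, made by UGDH, and UDP-N-acetylglucosamine, the end product of the hexosamine pathway. Chains are cut at the cell surface and in lysosomes by hyaluronidases, with CEMIP and CEMIP2 acting outside the classical hyaluronidase family, and the fragments are finished by lysosomal exoglycosidases. CD44 is the main cell surface receptor. It links hyaluronan to the cytoskeleton through ezrin, radixin and moesin, and it is widely used as a marker of mesenchymal and stem-like states in liver cancer.

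Promoter sequence is shown for HAS3 and CEMIP because they had the largest differences among the members. RefSeq (GRCh38.p14) gave 300-base windows, 250 bases before and 50 after a start site, for 8 of the 9 members. A set of 4 short motifs was searched on both strands, and it was picked after the windows had been seen. The E-box CACGTG occurred in the HAS3 window and in no other window of a member, starting 66 bases before the start site (stretch chr16:69107462-69107491, plus strand). The TATA motif TATAAA occurred in the CEMIP window alone, starting 30 bases before the start site (stretch chr15:80779328-80779357, plus strand). These start sites are those of RefSeq. They lie 1976 bases (HAS3) and 27 bases (CEMIP) inside the gene bounds of GENCODE 29 that are given with each gene below. The capitals mark the motif.
HAS3: gtgggaaagcggCACGTGggtgtggccggc
CEMIP: agtaaaagtggcTATAAAagcggcctctcg
Of all 35116 windows of this length, 7.26% held CACGTG and 11.5% held TATAAA. The AP-1 motif TGANTCA (7.71% of all windows) and the cell cycle motif TTTGAA (15.2%) were in no window of a member. These matches describe letters and not binding.

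MAD2L1 measured 14.5, 13.7 and 13.9 TPM in siControl and 4.47, 0.795 and 2.40 TPM in siMAD2L1 replicates 1, 2 and 3, so the targeted mRNA was lower in all 3 libraries and least so in replicate 1. TPM is a length-scaled share of each library and sums to the same total in all of them, so the read depth is unknown. On the second principal component (23.4% of the variance) siMAD2L1 replicate 1 stood apart, at 40.0 against -24.7 and -11.9 for replicates 2 and 3. It had the highest value of the 3 siMAD2L1 libraries at 53.2% of all tested genes. Hepatocyte markers were scarce: 4 of 12 reached a mean of 1 TPM, ALB stayed at or under 0.451 TPM, and APOB, APOC3 and TTR were listed at 0. The summed hepatocyte markers ran from 18.0 to 23.8 TPM in siControl and from 8.09 to 14.0 TPM in siMAD2L1. Of the 4 tested, 2 were called lower, beside 6.23% of all tested genes called lower, and 2 did not pass. Those not passing were AFP (log2 difference 0.03, limma adjusted p = 0.978) and SERPINA1 (-0.12, limma adjusted p = 0.821), both with overlapping groups. The sum is thus no general fall of the list. Mesenchymal markers summed to 9358 to 10199 TPM in siControl and 10716 to 11352 TPM in siMAD2L1, nearly all of it VIM. In the same list S100A4 fell from 136 ± 12.9 to 90.2 ± 2.12 TPM (SD, n = 3; log2 difference -0.58, limma adjusted p = 0.00837). VIM, CDH2, FN1 and ZEB1 did not pass. Of these, ZEB1 went from 3.38 ± 0.433 to 7.88 ± 3.50 TPM, higher without overlap (log2 difference 0.95, limma adjusted p = 0.0638). VIM was also higher without overlap (0.19, limma adjusted p = 0.114), and the groups overlapped at CDH2 and FN1. Leukocyte markers summed to 69.8 to 77.2 TPM in siControl and 128.5 to 149.7 TPM in siMAD2L1. That sum was mostly CD68, a lysosomal glycoprotein, at 63.1 to 69.8 TPM in siControl and 124.8 to 144.5 TPM in siMAD2L1. PTPRC, the defining leukocyte marker, stayed at or under 0.060 TPM, with CD3E listed at 0. CD14 of the same list went the other way, from 5.235 to 11.251 TPM in siControl to 2.902 to 4.433 TPM in siMAD2L1. CD14 was thus lower without overlap but did not pass (log2 difference -0.89, limma adjusted p = 0.0851). Of the 3 tested genes of that list, only CD68 passed. Epithelial markers summed to 410.7 to 426.3 TPM in siControl and 279.5 to 309.2 TPM in siMAD2L1. Nearly all of that was KRT8 and KRT18, and CDH1, KRT19 and EPCAM stayed at or under 1.473 TPM. Fibroblast and stellate cell markers summed to 535.5 to 633.9 TPM in siControl and 369.9 to 444.6 TPM in siMAD2L1. That sum was mostly COL1A1 and COL1A2, with LUM listed at 0 and DCN at or under 0.041 TPM. RGS5 of the same list averaged 39.39 TPM in siControl and 53.35 TPM in siMAD2L1, with overlapping groups. The part of these shifts, and of the distance of replicate 1, in the values of the hyaluronan genes was not tested.

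Under control siRNA the members spanned from among the most abundant mRNAs to 0. CD44 was the highest at 652 ± 36.8 TPM (SD, n = 3), above 98.7% of tested genes on its mean over the 6 libraries. UGDH followed at 221 ± 4.86 TPM and HAS3 at 129 ± 3.47 TPM. HYAL3 (19.6 ± 2.07 TPM) and HYAL2 (17.9 ± 2.77 TPM) had overlapping ranges, as did CEMIP (1.56 ± 0.192 TPM) and HAS2 (1.56 ± 0.151 TPM), so neither pair can be ordered. HYAL1 lay at 0.681 ± 0.306 TPM, and HMMR-AS1 was listed at 0 in all 6 libraries. Genes with a mean of at least 1 TPM (14790) were tested with limma, and a gene passed at a Benjamini-Hochberg adjusted p under 0.05 over all of them. This kept 7 members and left out HYAL1 and HMMR-AS1. In siMAD2L1 the order of the leading genes differed: HAS3 exceeded UGDH within each of the 3 libraries, whereas UGDH exceeded HAS3 within each control library.

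**Figure D1:**
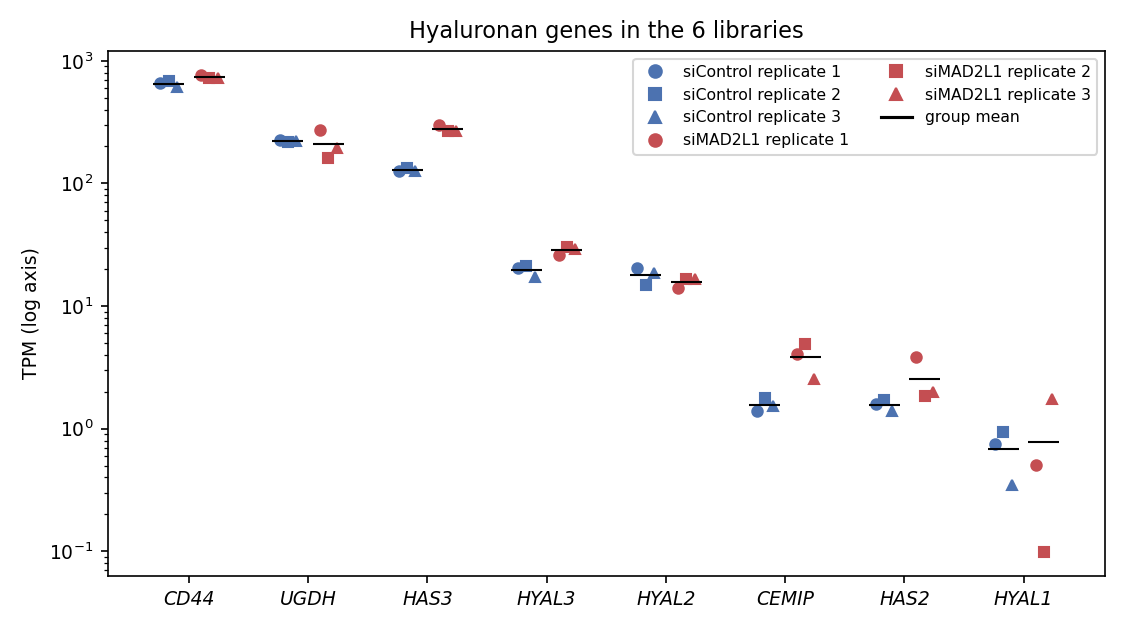
TPM (log axis) of 8 members in each library, blue for siControl and red for siMAD2L1, with marker shape for the replicate and a black line for the group mean; HMMR-AS1 is at 0 throughout and is not drawn. The red points of HAS3 lie between 267.5 and 299.5 TPM, above blue points of 126 to 133 TPM, while the red points of UGDH straddle the blue ones.

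HAS3, the synthase that makes comparatively short chains, measured 127, 133 and 126 TPM in siControl and 299.5, 268 and 268 TPM in siMAD2L1. All 3 siMAD2L1 libraries stood above all controls, at 2.33, 2.08 and 2.08 times the siControl mean. The log2 difference of log2(TPM + 1) was 1.11 (SE 0.0745), and 112 of 14790 tested genes had a larger rise. HAS2, which makes long chains and is the main synthase of development, measured 1.59, 1.70 and 1.40 TPM in siControl and 3.82, 1.85 and 1.98 TPM in siMAD2L1. The groups did not overlap, but replicate 1 was far above the other siMAD2L1 libraries. The log2 difference of HAS2 was 0.43 (SE 0.253), and 0.19 without that replicate. HAS1 reached 0.528 TPM in 1 control library and stayed at or under 0.075 TPM in the other 5, under the filter. HAS3 therefore made up 98.4% to 98.9% of the summed TPM of the 3 synthases in siControl and 98.7% to 99.3% in siMAD2L1. In bulk RNA, more transcript per cell and more cells with the transcript cannot be told apart.

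HAS3 (ENSG00000103044) lies on the plus strand at chr16:69105564-69118719 (GRCh38), and its last 710 bases overlap CHTF8 on the opposite strand. CHTF8 averaged 51.2 TPM in the controls and 39.1 TPM after knockdown (log2 difference -0.39, limma adjusted p = 0.0672), which is the opposite sign to HAS3, and passed with a filter at 5 TPM (adjusted p = 0.0496) and with the highest genes left out (0.0480). HAS2 (ENSG00000170961) lies on the minus strand of chromosome 8 and shares 2098 bases with its antisense RNA HAS2-AS1. HAS2-AS1 stood at 1.78 ± 0.566 TPM in the controls and 2.15 ± 0.479 TPM after knockdown (SD, n = 3 each), with overlapping groups (log2 difference 0.19, limma adjusted p = 0.658). Whether the counting used strand is not given in the sources used here, so reads of a gene and its antisense partner may be shared.

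Among the precursor genes, UGDH, which oxidises UDP-glucose to UDP-glucuronate, measured 226, 217 and 220.3 TPM in siControl and 271, 161 and 195 TPM in siMAD2L1. The controls agreed closely, with a coefficient of variation of 2.2%, while the siMAD2L1 libraries varied by 27.0% and lay on both sides of the controls. The log2 difference of UGDH was -0.12 (SE 0.167). It was -0.32 without siMAD2L1 replicate 1, 0.05 without replicate 2 and 0.29 for replicate 1 alone. UGDH (ENSG00000109814) lies on the minus strand at chr4:39498755-39528311 and overlaps UGDH-AS1 by 293 bases, and UGDH-AS1 did not pass (log2 difference -0.43, limma adjusted p = 0.355). It did without siMAD2L1 replicate 1 (-0.72, adjusted p = 0.0391) and with array weights (-0.77, adjusted p = 0.0106).

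The rest of precursor supply, on both the UDP-glucuronate and the UDP-N-acetylglucosamine side, was examined through genes that are not members. The gene lists, here and below, were chosen with earlier results of these data known, so their p-values are no independent test. Of 10 tested non-member genes of UDP-sugar supply, 2 rose, none fell and 8 did not pass, beside 9.78% of all tested genes called. At an unadjusted p under 0.05, 4 of the 10 were higher and 0 lower, beside 26.3% of all tested genes (8.90% higher and 17.4% lower). These genes had a median log2 difference of 0.24, against -0.08 over all tested genes. UAP1, which forms UDP-N-acetylglucosamine in the last step of the hexosamine pathway, measured 60.7, 62.5 and 61.4 TPM in siControl and 157, 128 and 136 TPM in siMAD2L1. Each siMAD2L1 library was at least 2.08 times the siControl mean (log2 difference 1.17, SE 0.0920, limma adjusted p = 0.00100). UAP1 passed in all 19 alternative fits, with a highest adjusted p of 0.0191. NAGK, the kinase that salvages N-acetylglucosamine, rose from 96.3 ± 2.97 to 131 ± 10.1 TPM (SD, n = 3; log2 difference 0.44, limma adjusted p = 0.0177), but lost its call in 5 of the 6 leave-one-out fits (highest adjusted p 0.0886, without siControl replicate 1).

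Between these lies PGM3, the phosphoacetylglucosamine mutase, described after its values were seen, as are the next 3 genes. It measured 18.9, 18.8 and 22.1 TPM in siControl and 41.7, 24.8 and 27.9 TPM in siMAD2L1 and did not pass (log2 difference 0.60, limma adjusted p = 0.0838). It passed with upper-quartile scaling (adjusted p = 0.0480), quantile normalization (0.0452), array weights (0.00965) and for siMAD2L1 replicate 1 alone (0.0297). GFPT1, the entry enzyme of the hexosamine pathway (0.28, limma adjusted p = 0.264), GNPNAT1, the acetyltransferase of the pathway (0.03, limma adjusted p = 0.949), and UGP2, which makes UDP-glucose (0.28, limma adjusted p = 0.296), did not pass either. UGP2 passed for siMAD2L1 replicate 1 alone (0.66, adjusted p = 0.0267). In all 4 of these genes replicate 1 was the highest siMAD2L1 library, and without it the log2 differences were 0.39 for PGM3, 0.13 for GFPT1, -0.19 for GNPNAT1 and 0.09 for UGP2. The ratio of UGDH to UAP1 within a library was 3.73, 3.47 and 3.59 in siControl and 1.73, 1.26 and 1.43 in siMAD2L1, so UAP1 gained on UGDH in all 3 libraries.

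**Figure D2:**
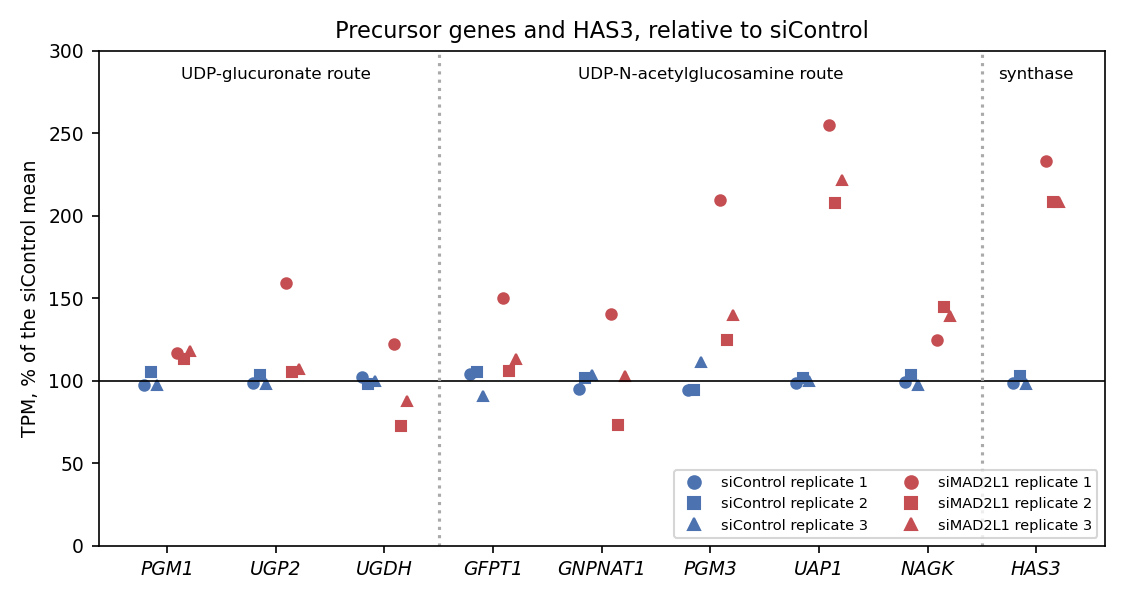
TPM of precursor genes and HAS3 in each library as a percentage of the siControl mean (line at 100), with the UDP-glucuronate genes at the left, the UDP-N-acetylglucosamine genes in the middle and the synthase at the right. UAP1 and HAS3 stand at 2.08 times the siControl mean or more in all 3 siMAD2L1 libraries, while UGDH falls on both sides of 100 and PGM3, UGP2, GFPT1 and GNPNAT1 are highest in replicate 1.

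Among the genes of hyaluronan breakdown is CEMIP (ENSG00000103888, chr15:80779343-80951776, plus strand, GRCh38), which binds hyaluronan and drives its depolymerisation. CEMIP measured 1.40, 1.77 and 1.52 TPM in siControl and 4.09, 4.88 and 2.52 TPM in siMAD2L1. The groups did not overlap, and the siMAD2L1 libraries were 2.61, 3.12 and 1.61 times the siControl mean. The log2 difference of CEMIP was 0.88 (SE 0.236), which understates the ratio at this low level, and it was 1.20 with a pseudocount of 0.1. MESD, on the opposite strand, shares 5488 bases with CEMIP and stood at 14.9 ± 0.390 and 16.5 ± 2.10 TPM (SD, n = 3 each, siControl first; log2 difference 0.14, limma adjusted p = 0.518). CEMIP2, a transmembrane hyaluronidase and not a member, measured 22.6, 22.6 and 21.1 TPM in siControl and 22.4, 12.9 and 14.5 TPM in siMAD2L1. It did not pass (log2 difference -0.43, limma adjusted p = 0.198). CEMIP2 did pass without siMAD2L1 replicate 1 (-0.66, adjusted p = 0.00976) and with array weights (-0.57, adjusted p = 0.00454).

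The 3 hyaluronidases lie side by side on the minus strand of chromosome 3 (GRCh38). HYAL3, the least understood of them, measured 20.2, 21.3 and 17.3 TPM in siControl and 26.0, 30.3 and 29.2 TPM in siMAD2L1, again without overlap (log2 difference 0.52, SE 0.117). Its gene (ENSG00000186792, chr3:50292831-50299468) contains all 3020 bases of NAA80, an actin N-terminal acetyltransferase gene on the same strand. NAA80 stood at 13.8 ± 1.59 TPM in the controls and 16.1 ± 2.28 TPM after knockdown (SD, n = 3 each) and did not pass (log2 difference 0.21, limma adjusted p = 0.405). A further gene on the same strand shares 88 bases with HYAL3. How shared reads were divided is not given in the sources used here, so the HYAL3 value is uncertain. The ratio of HYAL3 to NAA80 within a library was 1.37 to 1.54 in siControl and 1.63 to 1.90 in siMAD2L1.

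HYAL2, the membrane-anchored hyaluronidase that starts the breakdown of long chains, measured 20.3, 14.9 and 18.6 TPM in siControl and 13.9, 16.5 and 16.7 TPM in siMAD2L1. The groups overlapped (log2 difference -0.17, SE 0.144). HYAL2 (ENSG00000068001, chr3:50317790-50322906) shares 2880 bases with TUSC2 on the same strand, which did not pass (log2 difference -0.05, limma adjusted p = 0.875). HYAL1 (ENSG00000114378, chr3:50299889-50312381), the lysosomal hyaluronidase, was too low to describe a direction, at 0.753, 0.944 and 0.345 TPM in siControl and 0.502, 0.099 and 1.73 TPM in siMAD2L1. Summed over the 3 hyaluronidases, HYAL3 took 47.8% to 57.3% of the TPM in siControl and 61.3% to 64.6% in siMAD2L1. Of 4 tested non-member genes of breakdown none passed the limma test, and 0 had an unadjusted p under 0.05. Over all tested genes the shares were 9.78% and 26.3%, so counts of 0 among 4 genes tell little. HEXA, a subunit of lysosomal hexosaminidase and the highest of them, stood at 170 ± 8.75 and 190.2 ± 9.85 TPM (SD, n = 3 each, siControl first; limma adjusted p = 0.232).

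CD44 measured 657, 686 and 613 TPM in siControl and 771, 719.7 and 718 TPM in siMAD2L1. The groups did not overlap, and the siMAD2L1 mean was 1.13 times the siControl mean (log2 difference 0.18, SE 0.0702). With quantile normalization the difference was 0.03. The ratio of HAS3 to CD44 within a library was 0.193, 0.193 and 0.206 in siControl and 0.388, 0.372 and 0.373 in siMAD2L1, so the synthase gained on the receptor in all 3. The table gives 1 value per gene, and GENCODE 29 lists 39 transcripts of CD44 (ENSG00000026508, chr11:35138870-35232402, plus strand), so the standard and variant forms of the receptor are not separated here. The antisense gene CD44-AS1, which overlaps it, measured 2.57, 1.21 and 0.823 TPM in siControl and 0.425, 0.464 and 0 TPM in siMAD2L1 and lay under the filter.

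HMMR, which encodes a hyaluronan-binding protein that also sits on the mitotic spindle, is described beside CD44 because HMMR-AS1 (ENSG00000251018, chr5:163483065-163494058, minus strand) lies across 8881 bases of it on the opposite strand. HMMR measured 3.63, 2.23 and 2.22 TPM in siControl and 2.13, 0.878 and 1.54 TPM in siMAD2L1. All siMAD2L1 libraries were below all controls, but HMMR did not pass (log2 difference -0.56, SE 0.267, limma adjusted p = 0.228). With a library left out its adjusted p was between 0.104 and 0.515. HMMR did pass with array weights (-0.67, limma adjusted p = 0.0383). Of 2 tested non-member receptor genes, HMMR and LAYN, a C-type lectin receptor for hyaluronan, neither passed (LAYN -0.41, limma adjusted p = 0.273). At an unadjusted p under 0.05 the count was 0. Over all tested genes, 9.78% were called and 26.3% had an unadjusted p under 0.05. LYVE1, the lymphatic hyaluronan receptor, was listed at 0, and PTPRC, STAB1, STAB2, TLR2 and TLR4 lay under the filter.

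Of 7 tested hyaluronan-binding matrix and plasma protein genes, 1 fell and 6 did not pass (median log2 difference -0.29), beside 9.78% of all tested genes called. At an unadjusted p under 0.05, 1 was higher and 2 were lower, beside 8.90% and 17.4% of all tested genes. C1QBP, a mostly mitochondrial protein also known as a hyaluronan-binding protein, fell from 202 ± 13.0 to 149 ± 13.3 TPM (SD, n = 3; log2 difference -0.44, limma adjusted p = 0.0248), and lost its call in 4 of the 6 leave-one-out fits (highest adjusted p 0.105, without siControl replicate 3). TNFAIP6, which transfers heavy chains onto hyaluronan, measured 27.1, 25.9 and 22.9 TPM in siControl and 50.1, 27.0 and 24.3 TPM in siMAD2L1. Replicate 1 was far above the controls, and replicates 2 and 3 lay within their range (log2 difference 0.34, limma adjusted p = 0.434), and the difference was 0.02 without it. VCAN, the large hyaluronan-binding proteoglycan versican, did not pass (-0.29, limma adjusted p = 0.390). It did without siMAD2L1 replicate 1 (-0.51, adjusted p = 0.0397) and with array weights (-0.34, adjusted p = 0.0446). PTX3, a pentraxin of hyaluronan-rich matrix, was named after its values were seen. It measured 60.2, 60.8 and 55.7 TPM in siControl and 114, 75.7 and 79.2 TPM in siMAD2L1. PTX3 missed the threshold (0.57, limma adjusted p = 0.0529), but passed without siMAD2L1 replicate 1 (0.39, adjusted p = 0.0181). It also passed with a filter at 5 TPM (adjusted p = 0.036), upper-quartile scaling (0.0238), quantile normalization (0.0393) and array weights (0.00563).

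Of 15 tested CD44 partners, sheddases and splicing factors, 1 rose, 2 fell and 12 did not pass (median log2 difference -0.10), beside 9.78% of all tested genes called. At an unadjusted p under 0.05, 1 was higher and 4 were lower, beside 8.90% and 17.4% of all tested genes. MSN, moesin, which ties CD44 to actin, measured 310.1, 322 and 284 TPM in siControl and 444, 423 and 441 TPM in siMAD2L1 (log2 difference 0.51, SE 0.0716, limma adjusted p = 0.00649), with each siMAD2L1 library above each control. SRGN, serglycin, a secreted proteoglycan whose chains bind CD44, measured 116, 95.2 and 105 TPM in siControl and 55.9, 35.1 and 40.0 TPM in siMAD2L1 (log2 difference -1.27, SE 0.167, limma adjusted p = 0.00512). MSN and SRGN kept their calls in all 19 alternative fits. SRSF1, a splicing factor, fell from 86.3 ± 4.53 to 51.5 ± 12.7 TPM (SD, n = 3; log2 difference -0.76, limma adjusted p = 0.0317), and lost its call in 4 of the 6 leave-one-out fits (highest adjusted p 0.121, without siControl replicate 1). Ezrin, EZR, a close relative of moesin named after its values were seen, stood at 142 ± 3.93 and 143 ± 3.60 TPM (SD, n = 3 each; log2 difference 0.005, limma adjusted p = 0.973).

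UDP-glucuronate also feeds chondroitin and heparan sulphate. Of 21 tested genes of those chains, 1 fell, none rose and 20 did not pass in the limma fit, beside 9.78% of all tested genes called. Their median log2 difference was 0.08. At an unadjusted p under 0.05, 4 were higher and 2 lower, 6 of 21, beside 26.3% of all tested genes (8.90% higher and 17.4% lower). The gene that fell was CSGALNACT1, which starts chondroitin chains, from 10.2 ± 0.620 to 4.97 ± 1.39 TPM (SD, n = 3; log2 difference -0.93, limma adjusted p = 0.0222), and it lost its call in 5 of the 6 leave-one-out fits (highest adjusted p 0.103, without siControl replicate 3). Over the lists as a whole, 60 non-member genes were tested, of which 3 rose and 4 fell, 11.7% against 9.78% of all tested genes. The list count was 14 without siMAD2L1 replicate 1, with 4 higher and 10 lower. In that fit 2422 of all 14790 tested genes were called, 716 higher and 1706 lower. It was 3 without siControl replicate 1, 2 or 3, beside 326, 514 and 383 of all tested genes. Without siMAD2L1 replicate 2 or 3 the list count was 4, beside 793 and 645 of all tested genes. The calls over the whole table thus rose and fell in the same fits.

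**Figure D3:**
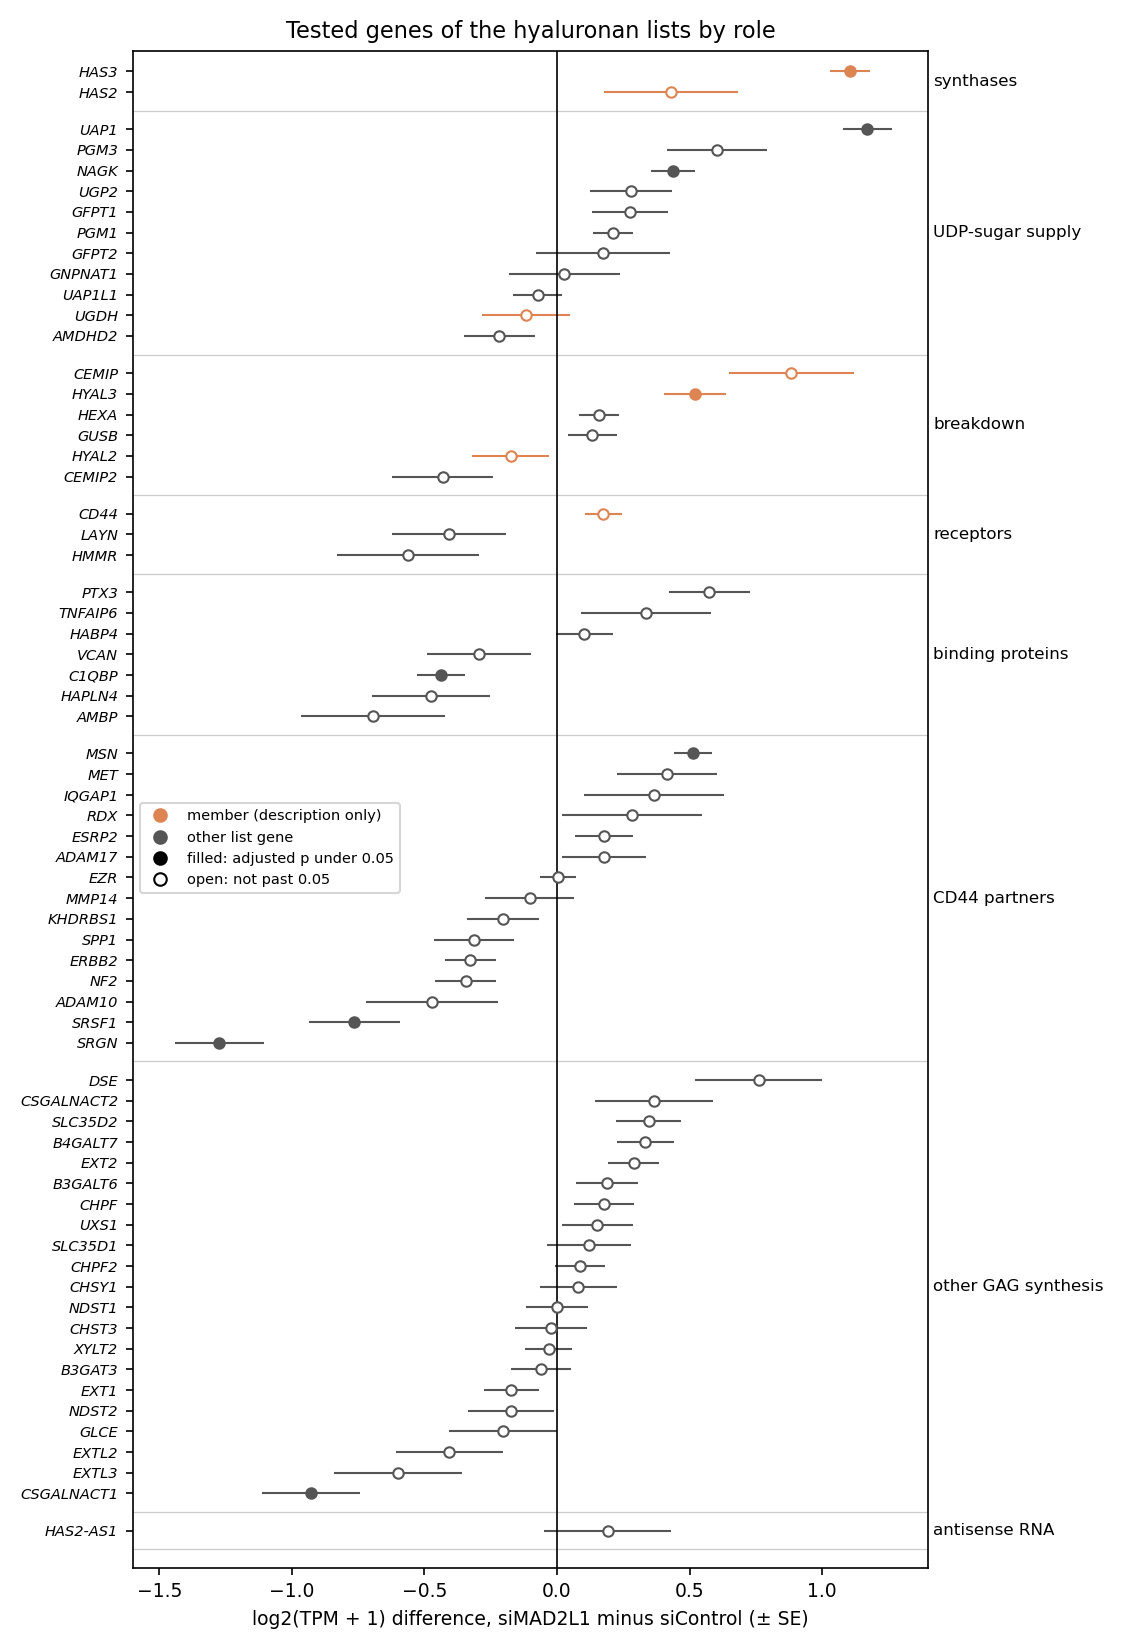
Log2(TPM + 1) difference, siMAD2L1 minus siControl, with its SE, for 66 of the 67 tested genes of the hyaluronan lists, grouped by role (1 non-member of the breakdown list is not shown); members are orange and other genes grey, and filled points had an adjusted p under 0.05. UAP1 at 1.17 and HAS3 at 1.11 lie furthest to the right and SRGN at -1.27 furthest to the left.

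Of the 7 tested members, 2 passed the threshold in the fit over all genes, HAS3 and HYAL3, both higher in siMAD2L1. The share of all tested genes called higher was 3.55%, and 6.23% were called lower. The groups did not overlap at 5 of the 7 (HAS2, HAS3, CD44, HYAL3 and CEMIP), all higher, beside 32.8% of all tested genes without overlap, 11.3% higher and 21.5% lower. Because the members were listed with this contrast known, nothing is read from these counts or from the calls in the alternative fits that follow. HAS3 was called in all 19 alternative fits. HYAL3 was called in 9 of 19, and with a library left out only without siMAD2L1 replicate 1. CEMIP, not called, was called in 4 of the 18 alternatives that gave it a value: upper-quartile scaling, quantile normalization, array weights and without siMAD2L1 replicate 3. HYAL3 and CEMIP were the only members whose call differed between fits.

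Leaving out 1 library at a time moved the members unequally. HAS3 stayed between 1.05 and 1.13 and HYAL3 between 0.44 and 0.58. CEMIP ranged from 0.73 without siMAD2L1 replicate 2 to 1.09 without replicate 3, and CD44 from 0.13 to 0.21. HAS2 ranged from 0.19 to 0.57 and UGDH from -0.32 to 0.05, with the lowest value of both in the fit without siMAD2L1 replicate 1. HYAL2 ranged from -0.29 without siControl replicate 2 to -0.08 without siControl replicate 1.

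**Figure D4:**
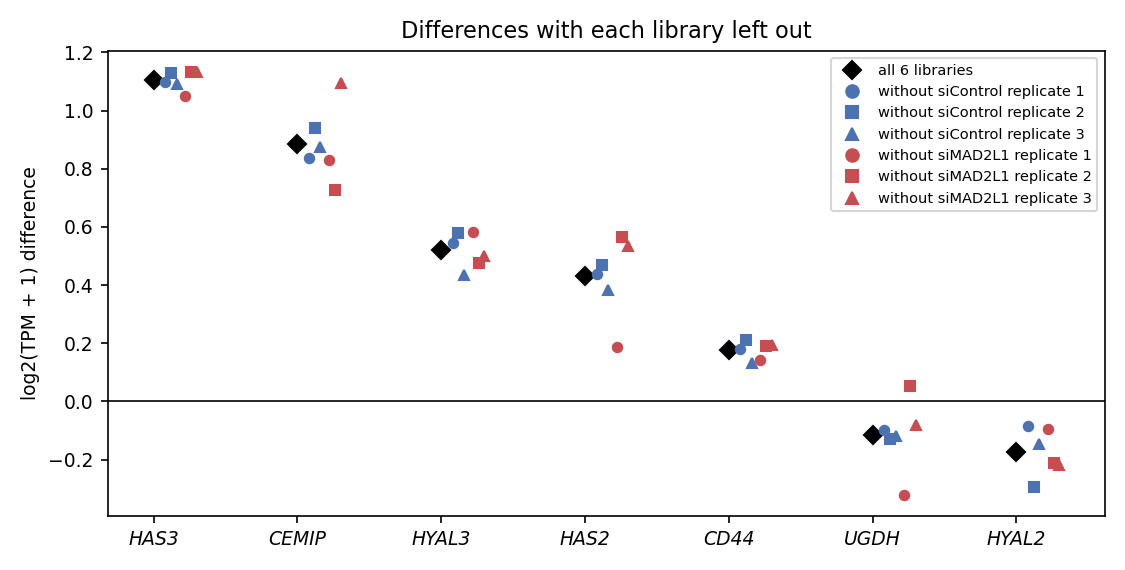
Log2(TPM + 1) difference of the 7 tested members with all 6 libraries (black diamonds) and with each library left out (blue for a control, red for a siMAD2L1 library, shape for its replicate). HAS3 stays above 1.05 throughout, while HAS2 drops to 0.19 and UGDH to -0.32 without siMAD2L1 replicate 1.

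Likeness of pattern was measured for members with a mean of at least 10 TPM as the distance between centred log2(TPM + 1) profiles over the 6 libraries. Only tested genes with a symbol were searched, and clone-style and LINC names were left out. The 3 genes nearest to HAS3 were DUSP16 (distance 0.115), UAP1 (0.128) and TM4SF19 (0.180), with log2 differences of 1.06, 1.17 and 1.04. UAP1, the precursor enzyme described above, was thus the second nearest. Nearest to CD44 was STK35 (0.0428), to HYAL3 TBC1D25 (0.0742), to HYAL2 NDUFA1 (0.133) and to UGDH XRCC4 (0.0762). Profiles of so few libraries are matched by many genes, and the distances carry no test.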

How the data were processed

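Reads were processed by the authors, and the submitters' processing notes name fastp, HISAT2, DESeq2 1.16.1 and the build hg38. The counter, the annotation, its strand setting and the step to TPM were not given in the sources used here. The deposited values are TPM, which the authors scaled within each library, for 60589 rows. The identifiers of 5 members join an assembled locus (MSTRG prefix) to an Ensembl gene, and what each locus spans was not analysed here. Columns were matched to libraries by group and number in the titles. Genes with a mean of at least 1 TPM over the 6 libraries (14790) were tested as log2(TPM + 1) with limma 3.58.1 in R 4.3.3, with an intensity trend and no covariates, and Benjamini-Hochberg adjusted p under 0.05 was the threshold. Python 3.11.15 with pandas 2.3.3 and matplotlib 3.10.9 made the summaries and plots. Positions come from GENCODE 29 (GRCh38) and promoter windows from RefSeq.

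The members and gene lists were chosen with earlier results of these data known. Named are all members, MAD2L1, HMMR, CEMIP2, VCAN, TNFAIP6, HAS1, HAS2-AS1 and every other list gene that passed. Also named are the 2 highest genes of a list with none, the 3 genes nearest in pattern to HAS3, and the 1 nearest to CD44, HYAL3, HYAL2 and UGDH. Some of the genes that overlap a member were added, and others are marked. Some genes of the lists are not reported here by name. The fit was repeated with another pseudocount (0.1 or 0.5), without the filter, with a filter at 5 TPM, with 3 other scalings, without a trend, with robust variance or array weights, with a replicate block, at a threshold of 0.01, with each library left out, and with siMAD2L1 replicate 1 alone.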

Additional observations from a re-analysis of the deposited data

How the results depend on the processing

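The depth of the libraries is unknown, so counting error at CEMIP, HAS2, HYAL1 and HMMR, all at a few TPM or less, cannot be given. The 1446 calls over all genes (525 higher, 921 lower, 63.7% lower) became 727 with no filter, 952 without a trend, 4860 with array weights and 359 at an adjusted p of 0.01, and ranged from 326 to 2422 with a library left out (326, 514 and 383 without siControl replicates 1, 2 and 3, and 2422, 793 and 645 without siMAD2L1 replicates 1, 2 and 3). The share lower was 52.5% with upper-quartile scaling, 50.5% with quantile normalization, 73.2% without mitochondrial and the 20 highest genes, and 45.2% for siMAD2L1 replicate 1 alone. The 7 calls among non-member list genes became 4 with no filter, 4 without a trend, 28 with array weights, 3 at an adjusted p of 0.01, ranged from 3 to 14 with a library left out, and became 12 for siMAD2L1 replicate 1 alone. In that last fit the lone library is assumed to vary like the controls. The cause was not tested. With the replicate number as a block 868 genes were called over the whole table and 7 among the list genes, with HYAL3 not called. Same-numbered libraries deviated together by correlations of 0.0190, 0.00898 and 0.0631. These correlations cannot tell whether the libraries were handled as pairs, and the labels give only the shared number. None of the 7 called list genes changed direction under any alternative.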
